A study of Mus musculus with 9 samples.

Results

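Genes of the unfolded protein response and of the integrated stress response were described in NIH3T3 mouse fibroblasts carrying a form of MLKL that can be switched on by a small molecule. A list of 40 genes was used, chosen by name with earlier results of these data known. Of them, 39 had a probe set with 1 gene symbol among the 22180 genes tested. For Pdia4, a disulfide isomerase gene, the probe set also carries a microRNA gene, and it was not analysed here. A gene with several probe sets was represented by the one of highest mean level, which applied to Edem1 alone. The 39 genes were sorted by role into an ATF4 arm of 17, a reticulum chaperone arm of 12, 4 genes for the sensors and Xbp1, and 6 genes of protein degradation.

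The cell line, hMLKL1-181-2Fv-NIH3T3, carries part of human MLKL joined to Fv domains, and B/B, the agent given, dimerizes Fv domains. MLKL is the pseudokinase that breaches the plasma membrane in necroptosis. All 3 groups are of this line, with 3 one-colour Affymetrix arrays each. In the washout group, cells were given B/B at 50 nM for 1 h, sorted as positive for annexin V, which binds exposed phosphatidylserine, and then kept in a 6 h washout. The series design gives 3000 nM for the washout without naming the compound. In the B/B 1 h group, cells were given B/B in the same way and sorted as annexin V-positive. The third group, control, is labelled as control treatment. For control cells, neither a sort nor a time of harvest is given in the labels. Against control, B/B, the sort and the time of harvest cannot be told apart, and after washout neither can time and the compound. Since separate cultures are not stated, p-values measure only the spread between these samples, which may be technical.

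Misfolded protein in the endoplasmic reticulum is sensed by PERK, IRE1 and ATF6. PERK, encoded by Eif2ak3, phosphorylates the initiation factor eIF2, as do the kinases that answer to amino acid shortage, heme shortage and double-stranded RNA. General translation then drops while that of ATF4 rises, and ATF4 turns on genes of amino acid supply together with Ddit3, Trib3 and other regulators. IRE1, encoded by Ern1, splices Xbp1 mRNA, and XBP1 and ATF6 turn on chaperones and degradation factors of the reticulum. The arrays measured the amount of each transcript. Phosphorylation of eIF2, translation of Atf4 and splicing of Xbp1 were not measured.

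Fibroblast identity was checked first. Of 8 fibroblast markers, Vim, Fn1, Col1a1, Col1a2, S100a4, Thy1 and Pdgfrb lay in the upper part of all genes by mean level, at the 86.1th to 100th percentile, and Fap lay at the 12.5th. The mean log2 level over the 8 genes was 9.38 to 9.40 on washout arrays, 9.82 to 9.86 on B/B 1 h arrays and 9.86 to 9.88 on control arrays. After washout 5 of the 8 were lower than in control, beside 11.7% of all genes. Pdgfrb was at -1.36, Col1a2 at -0.99 and Col1a1 at -0.79 (log2 difference). Of 7 measured leukocyte markers, Ptprc, Adgre1, Itgam, Lyz2 and Cd3e were in the lowest 30% of genes, and the mean log2 level over the 7 was 4.97 to 5.03 after washout, 4.97 to 5.06 at 1 h and 4.85 to 4.88 in control. Cd14 was higher than control at both times, by 0.61 at 1 h and 1.47 after washout (log2), and Cd68 was higher at 1 h, by 0.51. In all 3 of the 7 were higher at 1 h, beside 1.01% of all genes, and 1 was higher and 2 were lower after washout, beside 14.5% and 11.7%. The call of the third, Adgre1, was lost in 10 of its 13 alternatives (adjusted p up to 0.13), and those of the 2 lower, Ptprc and Lyz2, in 4 each (up to 0.0888 and 0.0902). Mean levels ran from 4.78 to 4.84 after washout, 4.86 to 4.92 at 1 h and 4.85 to 4.92 in control for 5 epithelial markers. For 4 endothelial markers they ran from 4.77 to 4.88 after washout, 4.65 to 4.81 at 1 h and 4.65 to 4.69 in control. The part of these shifts in the results below was not tested. The members were mostly well expressed, at the 38.9th to 99.9th percentile of all genes by mean, with a median at the 89.1th.

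Promoter windows were used to describe where motifs of the pathway occur in the arms. RefSeq windows of GRCm38.p6, each 300 bases long from 250 before to 50 after a transcript's start, were held for 35 of the 39 genes, in 38 windows. They were searched on both strands for 4 motifs. The composite site of ATF4 and C/EBP proteins, TGATGNAA, was in 5 of 20 windows of the ATF4 arm (25%), in 0 of 10 of the chaperone arm and in 3.97% of all 32851 windows. The reticulum stress element, CCAAT and CCACG with 9 bases between them, was in 7 of 10 chaperone windows (70%), in 0 of 20 of the ATF4 arm and in 0.119% of all windows. Its second form, ATTGG and CCACG with 1 base between them, was in the window of Herpud1 and in 0.0365% of all. The XBP1 site TGACGTGG, whose other strand begins with the same CCACG as both stress elements, was in no member's window and in 0.676% of all. A match here is a description of the letters and not a measured binding site. Motifs and arms were both chosen from what is known of the pathway, so these shares are no test of the arms.

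The 4 windows of the ATF4 arm below hold the composite site, in capitals, and are those of the members with the largest difference between washout and control among the genes with a match. They are read in the direction of the gene, and TTNCATCA is the motif on the other strand. In Asns the site ends 16 bases before the start, and in Trib3 it lies 15 to 22 bases after it.
Trib3, chr2:152344011-152344310, minus strand: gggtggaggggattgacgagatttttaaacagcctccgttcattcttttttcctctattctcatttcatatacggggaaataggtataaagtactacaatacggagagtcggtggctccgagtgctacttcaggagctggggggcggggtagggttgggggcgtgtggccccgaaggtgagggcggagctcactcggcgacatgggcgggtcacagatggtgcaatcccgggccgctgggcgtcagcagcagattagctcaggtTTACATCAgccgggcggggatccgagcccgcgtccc
Chac1, chr2:119350992-119351291, plus strand: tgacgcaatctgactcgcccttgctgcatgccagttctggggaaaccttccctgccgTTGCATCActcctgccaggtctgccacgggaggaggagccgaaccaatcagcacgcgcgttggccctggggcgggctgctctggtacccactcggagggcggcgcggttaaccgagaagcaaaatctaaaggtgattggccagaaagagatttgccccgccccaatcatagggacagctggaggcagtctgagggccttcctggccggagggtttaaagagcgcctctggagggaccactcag
Nupr1, chr7:126625421-126625720, minus strand: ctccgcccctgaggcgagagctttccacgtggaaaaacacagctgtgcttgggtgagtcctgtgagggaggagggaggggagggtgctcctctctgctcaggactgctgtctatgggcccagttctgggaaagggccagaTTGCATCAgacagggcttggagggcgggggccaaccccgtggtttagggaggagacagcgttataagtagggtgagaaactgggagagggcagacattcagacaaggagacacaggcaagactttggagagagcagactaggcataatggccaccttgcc
Asns, chr6:7693160-7693459, minus strand: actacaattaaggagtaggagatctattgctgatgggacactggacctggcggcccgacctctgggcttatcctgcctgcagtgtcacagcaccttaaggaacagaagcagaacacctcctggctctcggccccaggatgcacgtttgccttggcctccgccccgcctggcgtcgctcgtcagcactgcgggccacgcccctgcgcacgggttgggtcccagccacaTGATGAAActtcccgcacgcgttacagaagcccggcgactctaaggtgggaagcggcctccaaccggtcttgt

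The next 4 windows are those of the chaperone and degradation genes, chosen in the same way. Capitals mark the reticulum stress element, which the Hsp90b1 window holds once on each strand. In Hspa5 it lies 65 to 47 bases before the start. The same element was found in the windows of Calr, Canx, Creld2, Derl3 and Syvn1, and the composite site in those of Vldlr and Herpud1.
Dnajc3, chr14:118937682-118937981, plus strand: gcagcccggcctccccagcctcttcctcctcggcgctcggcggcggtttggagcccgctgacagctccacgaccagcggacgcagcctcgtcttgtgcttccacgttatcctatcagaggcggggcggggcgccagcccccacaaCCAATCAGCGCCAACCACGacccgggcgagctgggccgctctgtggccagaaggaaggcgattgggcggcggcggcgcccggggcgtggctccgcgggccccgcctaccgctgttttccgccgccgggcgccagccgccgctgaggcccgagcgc
Pdia6, chr12:17266339-17266638, plus strand: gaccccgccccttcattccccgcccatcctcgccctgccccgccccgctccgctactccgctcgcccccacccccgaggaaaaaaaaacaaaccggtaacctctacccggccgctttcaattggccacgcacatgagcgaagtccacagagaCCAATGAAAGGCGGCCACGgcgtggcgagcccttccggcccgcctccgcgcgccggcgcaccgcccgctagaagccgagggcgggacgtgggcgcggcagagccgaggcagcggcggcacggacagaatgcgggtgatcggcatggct
Hspa5, chr2:34771840-34772139, plus strand: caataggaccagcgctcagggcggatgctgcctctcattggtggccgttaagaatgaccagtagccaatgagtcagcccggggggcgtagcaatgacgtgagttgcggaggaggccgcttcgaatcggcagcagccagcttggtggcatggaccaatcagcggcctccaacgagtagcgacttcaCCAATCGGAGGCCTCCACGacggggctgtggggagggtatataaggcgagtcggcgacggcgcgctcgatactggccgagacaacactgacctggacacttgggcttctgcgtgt
Hsp90b1, chr10:86705395-86705694, minus strand: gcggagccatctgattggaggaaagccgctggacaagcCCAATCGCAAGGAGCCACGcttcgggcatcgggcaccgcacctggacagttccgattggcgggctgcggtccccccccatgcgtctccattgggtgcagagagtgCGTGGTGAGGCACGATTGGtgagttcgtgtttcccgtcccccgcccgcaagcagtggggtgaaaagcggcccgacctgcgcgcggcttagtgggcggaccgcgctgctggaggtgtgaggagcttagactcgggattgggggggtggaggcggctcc

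At 1 h, a few members of both arms were higher in B/B-treated, annexin V-positive cells than in control, and most of the list was near its control level. Ppp1r15a, Chac1 and Ddit3 of the ATF4 arm rose, 2.06-fold, 1.68-fold and 1.51-fold, and Dnajb9 and Hspa5 of the chaperone arm rose 1.35-fold and 1.21-fold. These 5 were the members called higher by limma, 12.8% of 39, with 0 called lower. At an unadjusted p under 0.05, 6 members were higher and 9 lower, beside 4096 of all 22180 genes in either direction. Among all 22180 genes 2.89% were called, 1.01% higher and 1.88% lower (limma, Benjamini-Hochberg adjusted p under 0.05), and 6.13% were called with the lowest 30% of genes left out. Of the genes called, 34.9% were higher, or 48% after quantile normalization and 46.1% without control replicate 3. The median log2 difference was -0.04 over the 39 members and under 0.01 in size over all genes, so the middle of the list lay just below control. In bulk RNA a change in the number of cells of a kind and in the RNA per cell cannot be told apart. All 5 calls held under each of the 14 other settings, which include leaving out each array in turn.

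Ppp1r15a encodes GADD34, the phosphatase subunit that removes phosphate from eIF2 and restarts translation. Its log2 level was 7.13, 7.03 and 7.01 after washout and 8.69, 8.75 and 8.74 at 1 h, against 7.67, 7.71 and 7.67 in control. The gene was thus highest at 1 h and lowest after washout, with no overlap between any of the groups. The log2 difference from control was 1.04 ± 0.045 at 1 h (SE; limma adjusted p = 2.73e-06) and -0.63 ± 0.045 after washout (adjusted p = 7.44e-06). Between washout and B/B 1 h it was -1.67, the largest difference of any member in any of the 3 comparisons.

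Ddit3 encodes CHOP, a transcription factor that ATF4 induces and that promotes death under lasting stress. It followed the same course in a smaller range. The log2 level was 8.31, 8.06 and 8.21 after washout and 9.12, 9.13 and 9.38 at 1 h, against 8.61, 8.62 and 8.63 in control. Again no groups overlapped. The difference from control was 0.59 ± 0.081 at 1 h (adjusted p = 0.00479) and -0.42 ± 0.081 after washout (adjusted p = 0.00303).

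Chac1, an enzyme gene whose product degrades glutathione, was also highest at 1 h but stayed above control. Log2 levels were 9.56, 9.42 and 9.47 after washout and 9.97, 9.99 and 9.92 at 1 h, against 9.16, 9.21 and 9.26 in control. The groups did not overlap. The difference from control was 0.75 ± 0.050 at 1 h (adjusted p = 4.86e-05) and 0.28 ± 0.050 after washout (adjusted p = 0.00236), and the fall between the times was -0.47 ± 0.050 (adjusted p = 7.23e-05).

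The transcript of Atf4 itself was called in neither comparison with control. Its log2 level was 9.56, 9.60 and 9.63 after washout and 9.56, 9.64 and 9.56 at 1 h, against 9.38, 9.53 and 9.52 in control. The washout and B/B 1 h arrays overlapped, and each group lay just above control. The differences of 0.12 ± 0.052 after washout and 0.11 ± 0.052 at 1 h did not pass the threshold (adjusted p = 0.138 and 0.307). Atf5, a related factor whose translation is controlled in a similar way, was 8.72, 8.70 and 8.71 after washout and 8.85, 8.89 and 8.85 at 1 h, against 8.91, 8.91 and 9.03 in control, and its washout difference from control was -0.24 (adjusted p = 0.00279).

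**Figure D1:**
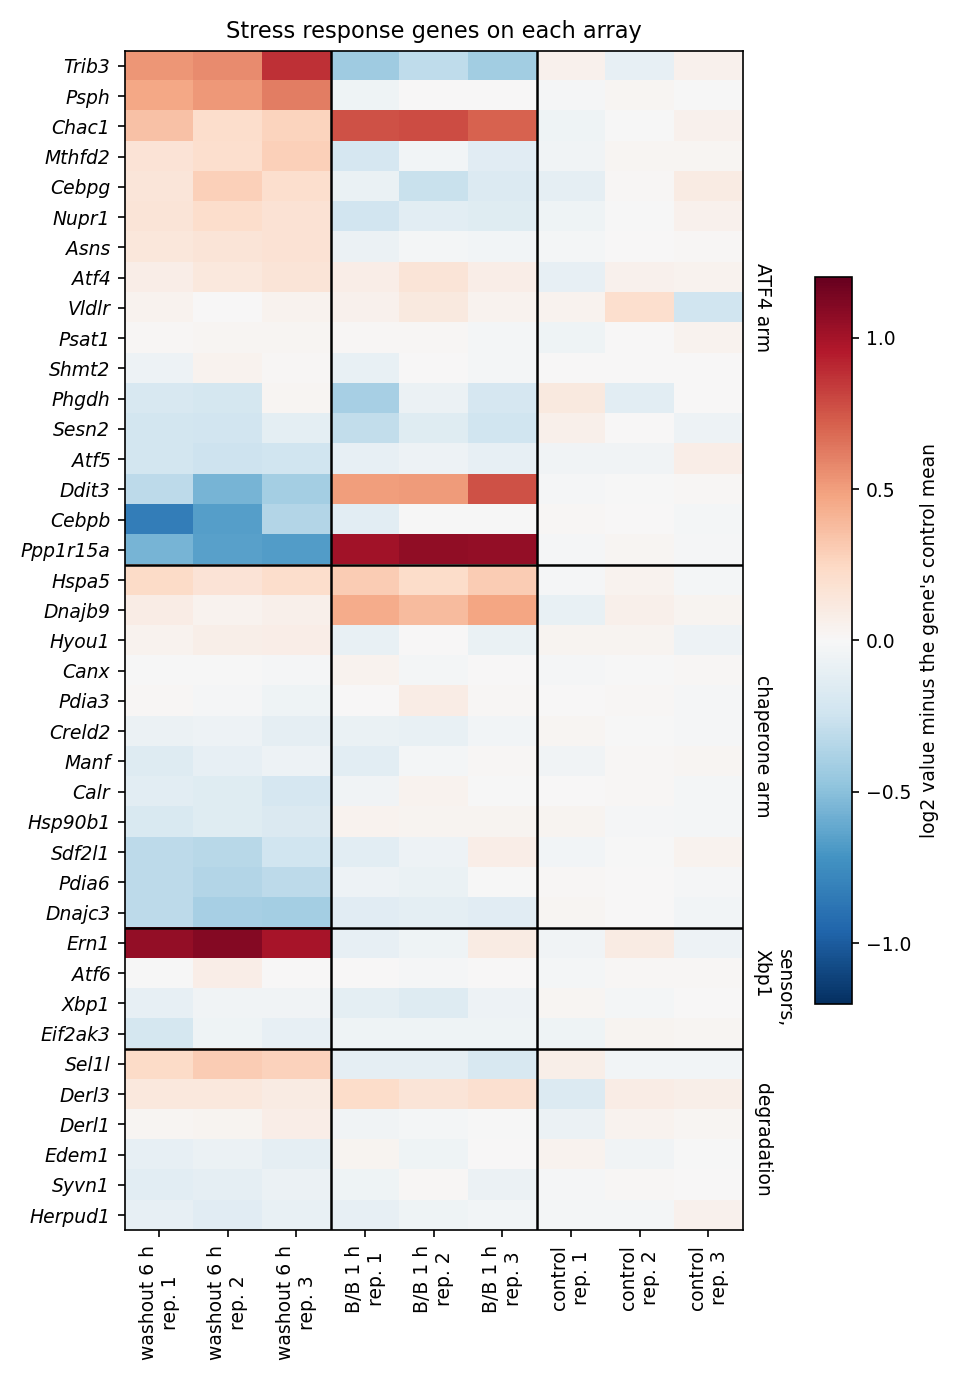
Every measured member (rows, by arm) on every array (columns), coloured by log2 value minus the gene's mean over the 3 control arrays. Ppp1r15a, Ddit3 and Chac1 are red on B/B 1 h arrays, the first pair turns blue on washout arrays, and Ern1, Trib3 and Psph are red on washout arrays only.

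Other regulators of the ATF4 arm behaved differently. Trib3 encodes a pseudokinase that ATF4 and CHOP induce and that feeds back on them. Its log2 level was 8.14, 8.17 and 8.48 after washout and 7.18, 7.31 and 7.19 at 1 h, against 7.65, 7.51 and 7.65 in control. The order was thus the reverse of that of Ddit3: the B/B 1 h arrays were lowest, the washout arrays highest, and no groups overlapped. The washout difference from control was 0.66 ± 0.089 (adjusted p = 4.07e-04), and that between washout and B/B 1 h was 1.04 ± 0.089 (adjusted p = 2.02e-05). At 1 h the value of -0.38 ± 0.089 against control did not pass (adjusted p = 0.0564). The value did pass with the lowest 30% of genes left out, with a variance trend, with only the 2 groups compared and without washout replicate 3. Adjusted p ran from 0.0141 to 0.17 over the alternatives.

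Cebpb and Cebpg encode C/EBP transcription factors that pair with ATF4. Cebpb was 7.13, 7.30 and 7.61 after washout and 7.84, 7.96 and 7.96 at 1 h, against 7.98, 7.97 and 7.94 in control. The washout arrays were all below the others and spread more widely than those of either other group. Cebpb fell by 0.61 ± 0.10 on the log2 scale after washout against control (adjusted p = 0.00139), with -0.04 at 1 h. Cebpg was at 0.21 against control after washout (adjusted p = 0.0545), and rose by 0.38 between 1 h and washout (adjusted p = 0.00239). The Cebpg value against control passed with the lowest 30% of genes left out, with a variance trend, without control replicate 3 and when the first or second B/B 1 h array was left out. Its adjusted p ran from 0.0268 to 0.18 over the alternatives.

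Smaller changes completed this group. Nupr1, a small stress-induced chromatin protein gene, was at 0.18 after washout against control (adjusted p = 0.0168). Sesn2, an inhibitor of mTORC1 signalling under amino acid shortage, was at -0.19 (adjusted p = 0.0353). At 1 h neither passed, with Nupr1 at -0.17 (adjusted p = 0.099) and Sesn2 at -0.23 (adjusted p = 0.0694). The Nupr1 call was lost without control replicate 1 or washout replicate 2, with adjusted p up to 0.0634. The Sesn2 call was lost without control replicate 1 or 2 or washout replicate 1 or 2, with adjusted p up to 0.119. Vldlr, a lipoprotein receptor gene that ATF4 can induce, was weakly expressed, at 4.40 to 4.84 on all arrays, and its differences from control of 0.03 after washout and 0.07 at 1 h were within the spread of its control arrays.

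Enzymes of amino acid and one-carbon supply, which ATF4 induces, were near control at 1 h and partly higher after washout. Of 6 enzymes, 0 were called at 1 h by limma, and 3 were called higher after washout. At 1 h 2 were lower at an unadjusted p under 0.05, beside 4096 of all 22180 genes in either direction. Among all genes 14.5% were higher after washout. With the lowest 30% of genes left out, 39.1% were called in either direction. Psph, the last enzyme of serine synthesis, was 7.53, 7.59 and 7.68 after washout and 7.02, 7.07 and 7.07 at 1 h, against 7.05, 7.09 and 7.06 in control. Washout arrays lay above all others, and the difference from control was 0.53 ± 0.048 (adjusted p = 3.17e-05), or 1.45-fold. Mthfd2, a mitochondrial folate enzyme, and Asns, asparagine synthetase, rose by 0.22 and 0.15 against control. The Mthfd2 call was lost without control replicate 1 or washout replicate 3 (adjusted p up to 0.057). The earlier steps of serine synthesis did not pass, with Phgdh at -0.13 and Psat1 at 0.02 after washout, nor did Shmt2, which passes serine carbon to folate, at 0.00. Among the transcripts of serine synthesis, that of the last enzyme was higher, and a rise in those of the enzymes before it was not detected.

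After washout the ATF4 arm was split. Against control, 6 of its 17 members were called higher, namely Trib3, Psph, Chac1, Mthfd2, Nupr1 and Asns, and 5 lower, namely Ppp1r15a, Cebpb, Ddit3, Atf5 and Sesn2. Over all 39 members 9 were called higher and 10 lower, or 48.7%. Among all genes 26.2% were called, 14.5% higher and 11.7% lower, and 39.1% were called with the lowest 30% of genes left out. The median log2 difference of the ATF4 arm was 0.03, beside under 0.01 in size for all genes. Without control replicate 2 that median was 0.13.

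**Figure D2:**
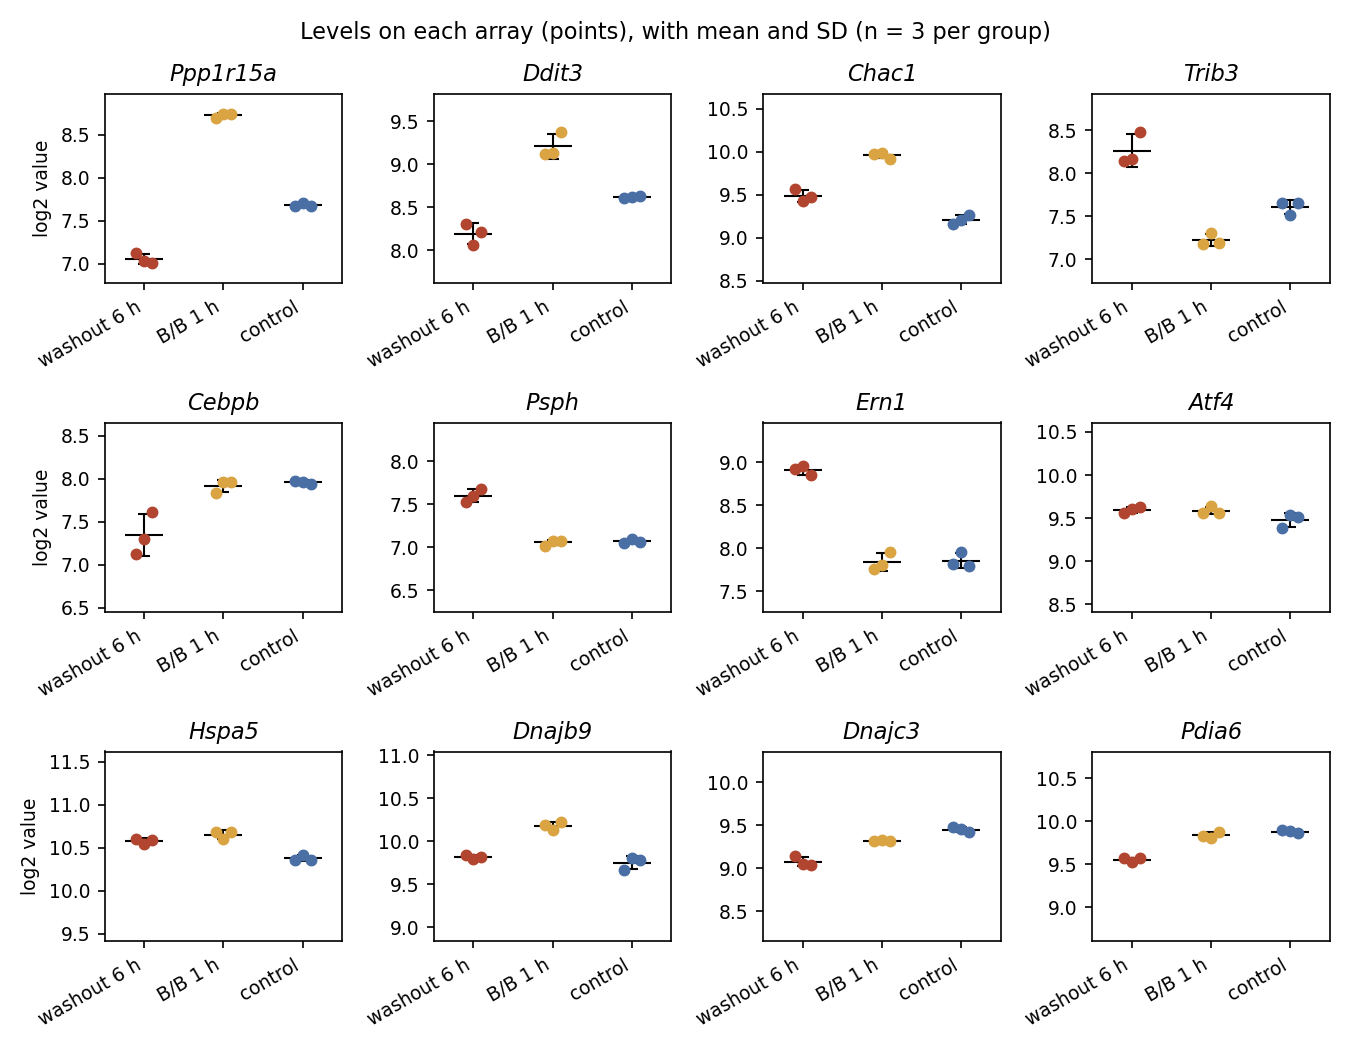
Log2 level of 12 members on each of the 9 arrays (points), with the mean and SD of each group (n = 3). All panels span the same range of 2.2 log2 units, so that heights can be compared between genes as differences but not as levels. Ppp1r15a and Ddit3 peak at B/B 1 h and end below control, while Trib3 is lowest at B/B 1 h and highest after washout.

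Of 12 chaperones of the reticulum, 2 rose at 1 h, and 1 was above and 5 were below control after washout. Among all genes 1.01% were higher at 1 h, and 14.5% were higher and 11.7% lower after washout. Hspa5 encodes BiP, the major Hsp70 of the reticulum, which holds the sensors inactive when bound to them. Its log2 level was 10.61, 10.54 and 10.59 after washout and 10.68, 10.60 and 10.68 at 1 h, against 10.36, 10.42 and 10.35 in control. Both groups lay above every control array, and they overlapped each other. The difference from control was 0.20 ± 0.044 after washout (adjusted p = 0.00642) and 0.28 ± 0.044 at 1 h (adjusted p = 0.0106).

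Dnajb9, a J-domain co-chaperone of BiP that also represses IRE1, was 9.84, 9.79 and 9.82 after washout and 10.19, 10.13 and 10.22 at 1 h, against 9.66, 9.81 and 9.78 in control. It stood above control at 1 h by 0.43 ± 0.050 (adjusted p = 0.00164). The washout arrays overlapped with control, at a difference of 0.06 (adjusted p = 0.432), and lay below the B/B 1 h arrays by 0.37 (adjusted p = 3.45e-04).

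The chaperones that fell after washout were Dnajc3, Pdia6, Sdf2l1, Hsp90b1 and Calr. Dnajc3, known as p58IPK, a co-chaperone that inhibits eIF2 kinases, was 9.14, 9.06 and 9.04 after washout and 9.31, 9.33 and 9.31 at 1 h, against 9.48, 9.46 and 9.42 in control. Pdia6, a disulfide isomerase, was 9.57, 9.52 and 9.57 after washout and 9.82, 9.80 and 9.88 at 1 h, against 9.90, 9.88 and 9.86 in control. In both genes the washout arrays were below all others, and the differences from control were -0.37 ± 0.043 for Dnajc3 (adjusted p = 1.40e-04) and -0.33 ± 0.040 for Pdia6 (adjusted p = 2.15e-04). Sdf2l1, a partner of BiP complexes, Hsp90b1, the Hsp90 of the reticulum known as GRP94, and Calr, the lectin chaperone calreticulin, fell by 0.30, 0.17 and 0.16 on the log2 scale. The Calr call was lost without control replicate 1 or 2 or washout replicate 3 (adjusted p up to 0.0736).

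Against control after washout, 1 chaperone was thus higher and 5 were lower of 12, with a median log2 difference of -0.09. That is 50.0% called, beside 26.2% of all genes, or 39.1% with the lowest 30% of genes left out. The remaining 6 chaperones were within 0.101 of control (log2) and did not pass. They were Dnajb9, Hyou1, Canx, Pdia3, Creld2 and Manf, with Hyou1, a large Hsp70-like chaperone, at 0.06 and Manf, a secreted reticulum factor, at -0.10. Between washout and B/B 1 h, 6 chaperones were lower and 0 higher by limma, at a median of -0.12. These stand beside 12.0% of all genes lower and 16.6% higher, or 42.5% called with the lowest 30% of genes left out. Hyou1, at 0.12, was the 1 chaperone higher at an unadjusted p under 0.05, beside 8283 of all 22180 genes in either direction.

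Of the 4 genes for the sensors and Xbp1, 1 was called after washout against control, and it was higher. This count stands beside 26.2% of all genes called, of which 14.5% were higher. With the lowest 30% of genes left out, 39.1% were called. Ern1 encodes IRE1, the sensor that splices Xbp1 mRNA. Its log2 level was 8.91, 8.96 and 8.85 after washout and 7.76, 7.80 and 7.95 at 1 h, against 7.81, 7.96 and 7.80 in control. The washout arrays lay well above the other groups, which overlapped each other. Ern1 rose 2.07-fold against control, by 1.05 ± 0.065 (log2, SE; adjusted p = 3.36e-06), the largest rise of any member over control after washout.

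Atf6, Eif2ak3 and Xbp1 did not pass in limma at either time. Xbp1 at 1 h and Eif2ak3 after washout were lower at an unadjusted p under 0.05. That unadjusted threshold was passed by 4096 of all 22180 genes at 1 h and by 7531 after washout, in either direction. Atf6, the sensor that becomes a transcription factor when cleaved, was 9.34, 9.43 and 9.36 after washout and 9.36, 9.34 and 9.36 at 1 h, against 9.33, 9.36 and 9.36 in control. Eif2ak3, which encodes PERK, was 7.07, 7.23 and 7.18 after washout and 7.23 on each B/B 1 h array, against 7.23, 7.31 and 7.30 in control. The same value, 7.22744, was deposited for control replicate 1, B/B 1 h replicates 1 and 3 and washout replicate 2. Xbp1 was 10.21, 10.27 and 10.27 after washout and 10.20, 10.16 and 10.25 at 1 h, against 10.33, 10.29 and 10.32 in control. Xbp1 arrays of both groups lay just below those of control, at differences of -0.06 and -0.11 (adjusted p = 0.371 and 0.213). A probe set for the whole gene does not tell spliced from unspliced Xbp1.

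Of the 6 genes of reticulum-associated degradation, 1 was called after washout against control, 16.7% beside 26.2% of all genes. With the lowest 30% of genes left out, 39.1% of all genes were called. The 1 gene was Sel1l, the scaffold of the HRD1 ubiquitin ligase, which was higher, beside 14.5% of all genes. Its log2 level was 9.28, 9.35 and 9.32 after washout and 8.94, 8.95 and 8.86 at 1 h, against 9.11, 9.02 and 9.02 in control. The difference from control was 0.27 ± 0.048 (adjusted p = 0.00203), and from B/B 1 h 0.40 ± 0.048. At 1 h limma called none of the 6 against control, with 1 higher and 1 lower at an unadjusted p under 0.05. These stand beside 2.89% of all genes called and 4096 of 22180 at that unadjusted p in either direction. Syvn1, which encodes HRD1 itself, Herpud1, which recruits it, Edem1, a mannosidase-like factor, and Derl1, a membrane channel component, lay between -0.11 and 0.04 against control after washout and did not pass. Derl3 was at the low end of the members, at 4.21 to 4.59 on all arrays, with differences of 0.12 after washout and 0.19 at 1 h that did not pass.

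**Figure D3:**
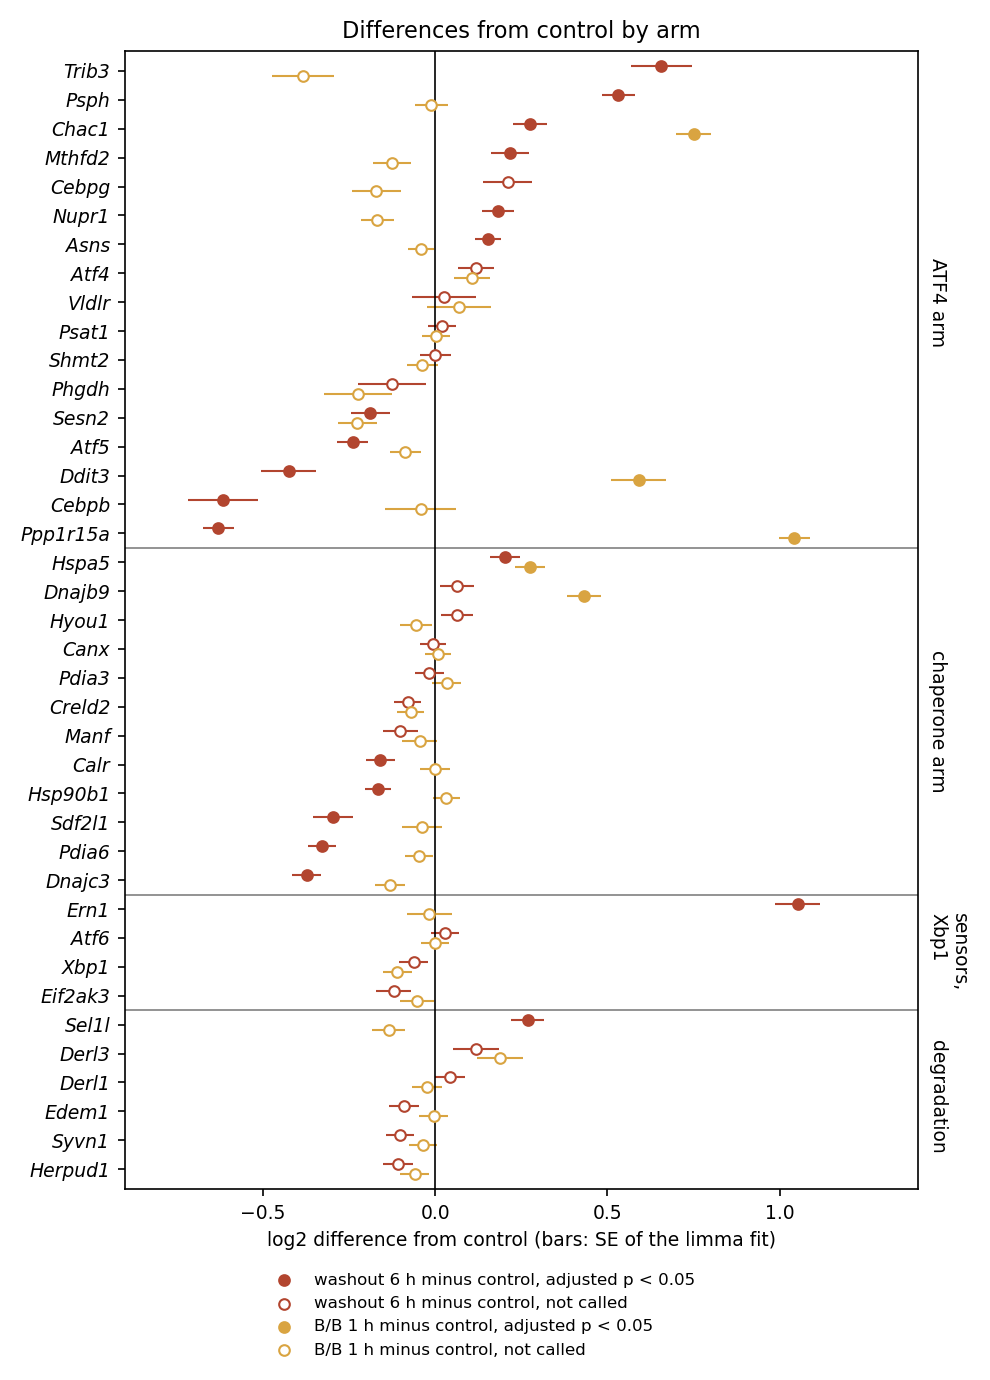
Log2 difference from control of each measured member after washout (red) and at 1 h of B/B (yellow), with the SE of the limma fit as bars; filled points passed an adjusted p of 0.05. Both comparisons share the 3 control arrays. At 1 h 5 points are filled, and after washout 9 to the right of 0 and 10 to the left.

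Between washout and B/B 1 h, 8 members were higher and 11 lower. That is 48.7% of 39, beside 28.6% of all genes, of which 16.6% were higher and 12.0% lower, and beside 42.5% with the lowest 30% of genes left out. The members higher over this interval were Ern1, Trib3, Psph, Sel1l, Cebpg, Nupr1, Mthfd2 and Asns. Those lower included all of Ppp1r15a, Ddit3, Chac1 and Dnajb9, which had been higher at 1 h, while Hspa5 was at -0.07 and did not pass (adjusted p = 0.265). Atf5 and Calr were lower by values near the threshold: the Atf5 call was lost without any 1 of the B/B 1 h or washout arrays (adjusted p up to 0.0854), and the Calr call without B/B 1 h replicate 2 or washout replicate 3 (up to 0.071).

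The mean level of each arm on each array, taken relative to control, shows the 2 arms side by side as a description without a test. Regulators and effectors of the ATF4 arm were at -0.08, -0.09 and -0.01 after washout and at 0.10, 0.16 and 0.14 at 1 h (mean log2 difference from the control mean), against -0.02 to 0.01 on control arrays. Its enzymes were at 0.09, 0.12 and 0.19 after washout and at -0.13, -0.02 and -0.07 at 1 h. By these means the enzymes were on the other side of 0 from the regulators at both times, but by medians they were not. The chaperone arm was at -0.09, -0.10 and -0.10 after washout and at 0.01, 0.03 and 0.05 at 1 h, against -0.01 to 0.01 in control.

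The ATF4 arm as a whole exceeded the chaperone arm by 0.07, 0.09 and 0.16 on washout arrays and by 0.01, 0.06 and 0.02 on B/B 1 h arrays, against -0.01 to 0.02 on control arrays. The ATF4 arm itself was at -0.02, -0.01 and 0.06 after washout and at 0.02, 0.10 and 0.07 at 1 h. The gap after washout thus lay mostly in the lower chaperone arm. These means are small beside the differences of single members. The median of the ATF4 regulators at 1 h was -0.04, although their mean was above 0. After washout their median was 0.03, although their mean was below 0. Medians of the enzymes were -0.04 at 1 h and 0.09 after washout, on the same side of 0 as those of the regulators. Sensors and Xbp1 were at 0.18 to 0.27 after washout, and at -0.11 to 0.00 without Ern1.

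**Figure D4:**
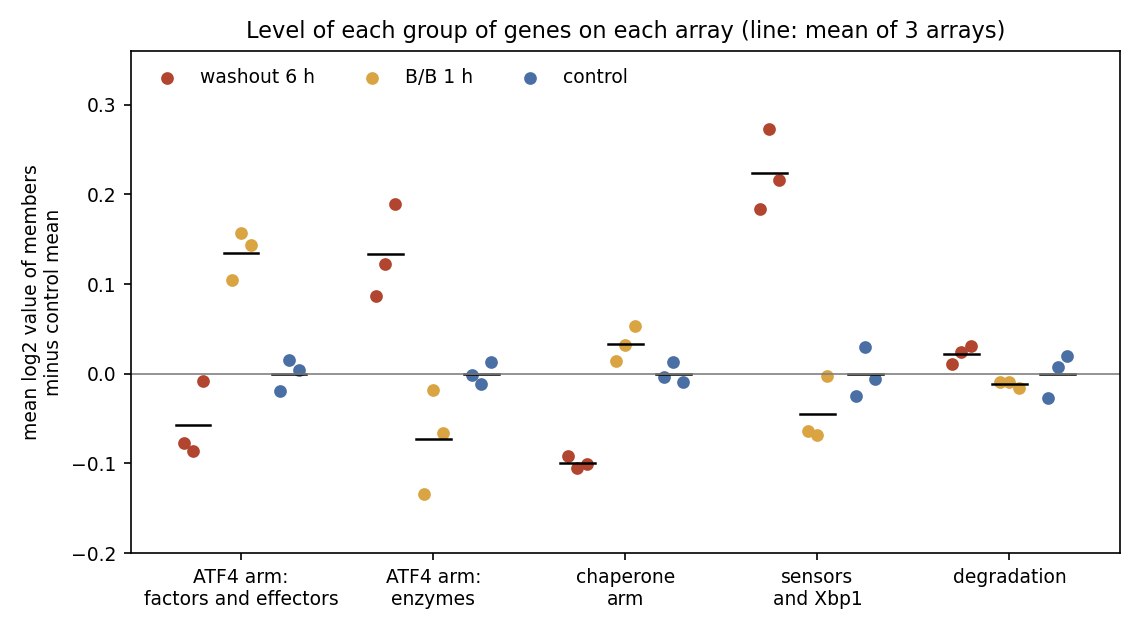
Mean log2 value of the members of each group of genes minus their control mean, on each array (points) with the mean of the 3 arrays (line). Washout arrays of the ATF4 enzymes lie above 0 and those of the chaperone arm below it; the sensor group rests on Ern1.

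Other genes of the pathway, in lists chosen by function with earlier results of these data known, were counted in the same fit. Their counts stand beside 1.01% of all genes higher and 1.88% lower at 1 h, and 14.5% higher and 11.7% lower after washout, or 39.1% called after washout with the lowest 30% of genes left out. Of 14 measured further ATF4 targets, 0 were higher and 2 lower than control at 1 h, and 7 were higher and 2 lower after washout, at a median of 0.10. Slc7a11, the cystine importer, rose by 3.03 (log2; 1.89 with its 2 probe sets averaged). Cth, which makes cysteine, rose by 0.68 and Gpt2, an alanine transaminase, by 0.67. Ddit4, an inhibitor of mTORC1, fell by 1.15. At 1 h Slc7a11 was at -0.35, or at -0.13 with probe sets averaged, which did not pass (adjusted p = 0.287), and the Ddit4 value of -0.21 lost its call in 9 of the 14 alternatives, among them each that left out a control or B/B 1 h array (adjusted p up to 0.126).

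Transfer RNA synthetases, several of which ATF4 induces, had 0 of 18 called at 1 h by limma. At an unadjusted p under 0.05, 0 were higher and 5 lower, beside 4096 of all 22180 genes in either direction. After washout 9 were higher and 3 lower than control, 66.7% of 18 beside 26.2% of all genes, at a median of 0.13. Cars, for cysteine, rose by 0.34 and Iars, for isoleucine, by 0.32, while Vars, for valine, fell by 0.50. Of 6 measured eIF2 kinase, phosphatase and ATF6 protease genes, Eif2ak2, which encodes the RNA-activated kinase PKR, was the 1 called at 1 h, lower by 0.47 (adjusted p = 6.24e-04). After washout 2 were higher and 1 was lower. Eif2ak1, the heme-regulated kinase, rose by 0.32. Eif2ak4, which senses uncharged tRNA, was at 0.14, a call lost in 9 of the 14 alternatives (adjusted p up to 0.149), and the Eif2ak2 value was -0.17, which did not pass without any 1 of the control arrays or washout replicate 1 (adjusted p up to 0.083).

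Genes of entry into the reticulum and of folding there were counted last. Of 18 translocon, signal peptidase and secretion genes, 0 were higher and 1 lower at 1 h, and 2 were higher and 8 lower after washout, 55.6% of 18 beside 26.2% of all genes, at a median of -0.12. Spcs3, a signal peptidase subunit, fell by 0.58, and Sec23b, a subunit of the COPII coat, rose by 0.35. The gene lower at 1 h, Sec61b of the translocon, was at -0.23, and its call was lost in 13 of the 14 alternatives (adjusted p up to 0.144). Of 14 further folding and degradation genes, 0 were called at 1 h by limma. At an unadjusted p under 0.05, 1 was higher and 2 were lower, beside 4096 of all 22180 genes in either direction. After washout 2 were higher and 6 lower, 57.1% of 14 beside the same 26.2%, at a median of -0.13. Fkbp2, a prolyl isomerase, and Pdia5, a disulfide isomerase, fell by 0.67 and 0.60, and Ero1b, an oxidase that recharges disulfide isomerases, rose by 0.54.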

How the data were processed

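The authors deposited log2 values per probe set for all 9 arrays. They were on a common scale, with array medians of 4.60 to 4.68. Base 2 was inferred from the range of the values and bears on every fold given. Per the labels' protocols, RNA was extracted with Trizol and labelled as biotinylated cRNA. The submitters' processing notes name Partek 6.6. How probes were summarized and normalized is not given in the sources used here. Some genes had exactly the same deposited value on several arrays, such as Shmt2 at 12.0164 on all 3 control arrays. The reason is not given, and the bearing of such ties on the spread was not tested.

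Gene symbols came from the platform annotation: 23521 of 41345 probe sets had 1 symbol, 1814 had several and 16010 had none, which gave 22180 genes. RefSeq (GRCm38.p6) supplied current names and promoter windows. In R 4.3.3, limma 3.58.1 fitted 1 model with a mean per group, after a run of the code on simulated data. Benjamini-Hochberg adjustment ran over all 22180 genes within each of 3 comparisons, and a gene was called at an adjusted p under 0.05. With 3 arrays a group, the number of arrays limits the precision.

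The members and lists were chosen with earlier results of these data known, so lists are given as counts and medians, without a test. Values on every array are given for members called at 0.3 or more in size (log2) against control, and for Atf4, Hspa5, Xbp1 and the sensors. Atf5 and Sel1l were added after their values were seen. From each other list, up to 3 called genes a direction were named, by size, and a few with calls near the threshold were added after their values were seen. Alternatives were quantile normalization, the lowest 30% of genes left out, probe sets averaged, a variance trend, a fit of only the 2 groups compared, and each array left out in turn. The labels name no batch or date.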

Additional observations from a re-analysis of the deposited data

How the results depend on the processing

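No member changed direction under any alternative where it was called, and 5 of 5, 15 of 19 and 17 of 19 member calls held in every alternative for B/B 1 h minus control, washout minus control and washout minus B/B 1 h. The number of genes called at 1 h, 642, was 1228 with a variance trend and 359 with only the 2 groups compared. It ran from 323 to 691 with 1 array left out, and was 376, 372 and 323 without control replicate 1, 2 or 3 and 369 and 422 without B/B 1 h replicate 1 or 2. Members called lower at 1 h, 0 in all and 0 in the ATF4 arm, were 2 with the lowest 30% of genes left out, 3 with a variance trend, 1 with only the 2 groups compared, and 0 to 1 with 1 array left out. These were among Trib3, Sesn2 and Nupr1. With a variance trend 1 chaperone, Hyou1, was called higher between washout and B/B 1 h. After quantile normalization the chaperone median was -0.0725 for washout minus control and -0.0998 for washout minus B/B 1 h. With 1 array left out, it ran from -0.0242 to 0.0014 for B/B 1 h minus control and from -0.14 to -0.11 for washout minus B/B 1 h, and the ATF4 arm median ran from 0.0207 to 0.127 for washout minus control. The cause of these shifts was not tested. No paired analysis was possible because the labels give no replicate numbers that the groups share. Groups of 3 arrays, with no stated separate cultures, limit what could be detected.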
